A study of Mus musculus with 3 samples.

Results

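The 2 short hairpin RNAs (shRNAs) directed against GIV were set against each other, gene by gene, in mouse RAW 264.7 macrophages treated with lipopolysaccharide (LPS). The deposited table gives 54331 features, of which 21803 were protein-coding. The contrast was described over the 10382 protein-coding genes that had a value above 0 in each of the 3 libraries and a mean of at least 50 normalized counts. Of the protein-coding genes left out, 11413 had a lower mean and 8 had a sufficient mean but a 0 in at least 1 library. Every difference below is log2(value + 1) in the library labelled shRNA 2 minus the same in the library labelled shRNA 1, so that 1.0 stands for 2-fold, and this scale understates the change of genes with low values. Where 3 values are given for a gene, they are normalized counts in the control, the library labelled shRNA 1 and the library labelled shRNA 2, in that order.

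RAW 264.7 is a macrophage line, given in the labels with BALB/c as the background strain and male as the sex, and their source field spells the line as RAW 267.4. All 3 cultures received LPS at 100 ng/mL for 5 h, so no unstimulated level is given. The control carried a control shRNA, and the other libraries, labelled GIV-depleted, carried shRNA 1 or shRNA 2. The submitters' design text calls these last libraries biological replicates. There was 1 library for each shRNA, so no difference has a replicate check and no test was made. An effect of the hairpin and a difference between separately handled cultures cannot be told apart here. The labels do not say whether each line was a clone or a pool.

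GIV, also called Girdin and encoded by Ccdc88a, is a large scaffold protein that binds actin and modulates heterotrimeric G proteins downstream of many receptors. LPS is recognised by CD14, MD-2 and TLR4, and the signal then follows a MyD88 arm that drives cytokine genes through NF-kB and a TRIF arm that drives interferon beta. Secreted interferon acts back on the macrophage and switches on antiviral genes, while LPS also slows the division of this proliferating line. Hairpins against the same gene are used side by side because each can also act on other transcripts.

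Ccdc88a (ENSMUSG00000032740.16, GRCm38 chromosome 11, 29373658 to 29510808, plus strand), the targeted gene, had 2580, 1734 and 2561 normalized counts. The library labelled shRNA 1 was the low one, and the library labelled shRNA 2 lay at the level of the control, so its mRNA level goes against the label GIV-depleted. The difference between the shRNA libraries was 0.56, and it stayed between 0.56 and 0.63 under all alternative settings tried. The paralog Ccdc88b had 5740, 5191 and 5809, a difference of 0.16, and Ccdc88c had 224, 206 and 260, a difference of 0.33. Every direction below therefore sets a library with lower Ccdc88a against one without.

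Totals were 47349097 to 49756670 normalized counts per library, and between 20030 and 20590 features were above 0. The commonest lowest value was 0.931, 1.11 and 0.966, and at this step a mean of 50 corresponds to roughly 45.0 to 53.7 reads. Mitochondrially encoded transcripts held 1.43%, 0.995% and 1.14% of the totals. Macrophage identity markers were present in all libraries: 28 of 29 passed the filter, their median difference was 0.04, and their summed level was 841723, 727804 and 744772. Lyz2, which encodes lysozyme and shares sequence with a neighbouring copy, had 199781, 121997 and 138145. Of the markers of other cells, 5 of 14 for dendritic cells, 8 of 17 for T and NK cells, 3 of 12 for B cells, 7 of 14 for neutrophils and mast cells, 9 of 11 for epithelium, 8 of 12 for erythroid cells, 1 of 12 for fibroblasts and 2 of 11 for endothelium were at 0 in all libraries. Endothelial markers with high values were Flt1, with 8824, 7641 and 6055, and Eng, with 1894, 1275 and 818, and the 4 markers of that list past the filter had a median difference of -0.49. Other lists also held expressed genes. Of the dendritic cell markers 5 passed the filter, among them Itgax, Bst2, Tcf4 and Kmo, and the list summed to 42711, 38469 and 32841. Lck and Il7r passed from the T and NK list, which summed to 1601, 1333 and 1571. Pax5 and Ebf1 passed from the B cell list, which summed to 286, 291 and 299. Defining genes at 0 throughout included Flt3, Cd3e, Ly6g and Epcam.

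The shRNA libraries were alike for most genes. The median difference was -0.01, the quartiles were -0.17 and 0.16, and the 5% and 95% points were -0.51 and 0.57. The library labelled shRNA 2 was higher by any amount in 4968 genes (47.9%) and lower in 5414 (52.1%). It was at least 1.5-fold higher in 497 genes (4.79%) and lower in 392 (3.78%). At least 2-fold, 155 genes were higher (1.49%) and 132 were lower (1.27%). These shares are the background against which the gene groups below are read. The 2-fold genes were mostly of low level: they made up 8.52% of the fifth of genes with the lowest means and 0.530% of the fifth with the highest. Just inside the 2-fold rule were Il7r (269 in the library labelled shRNA 1 and 540 in that labelled shRNA 2) and Lyst (1829 and 913), and just outside it were Gm12185 (266 and 533) and Ptpn22 (7431 and 3733).

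**Figure D1:**
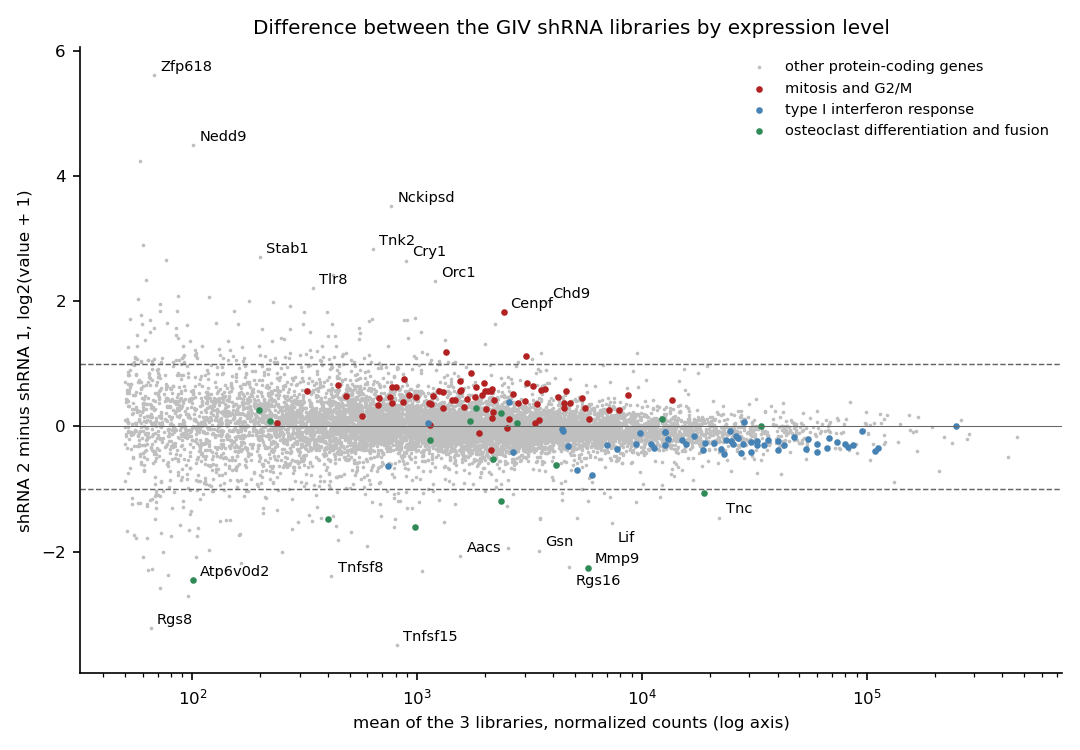
Each point is 1 of 10382 protein-coding genes: x, mean of the 3 libraries in normalized counts (log axis); y, shRNA 2 minus shRNA 1 on the log2(value + 1) scale, with dashed lines at 2-fold. Mitotic genes (red) lie mostly above 0, interferon-response genes (blue) mostly below 0 within the 2-fold lines, and 6 osteoclast genes (green) lie below the lower line.

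The largest positive differences belonged to genes of varied function. Zfp618 (chromosome 4, 62965573 to 63139708), a zinc finger gene, had 99.3, 1.13 and 103. The value in the library labelled shRNA 1 is about 1 read, so the ratio of 90.5 has a wide exact binomial 95% interval, 16.2 to 3671, computed from approximate read numbers and covering counting error only. Nedd9, a docking protein of focal adhesions, had 3.08, 11.8 and 287 (4.49), and there both other libraries were low. Nckipsd, a regulator of actin assembly, had 966, 106 and 1228 (3.52), and like Zfp618 was low in the library labelled shRNA 1 alone. Tnk2, a tyrosine kinase that binds Cdc42, had 274, 199 and 1425 (2.84), and Cry1, a repressor of the circadian clock, had 230, 334 and 2095 (2.65). Nedd4l, a ubiquitin ligase, had 8.70, 19.5 and 152 (2.90). Tnk2, Cry1 and Nedd4l were thus each high in the library labelled shRNA 2 alone. Nedd9 and Nedd4l passed the filter only through that library, so for them this pattern is built into the choice.

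Among genes with a mean of at least 1000 the high values again belonged mainly to the library labelled shRNA 2. Orc1, a subunit of the origin recognition complex, had 426, 525 and 2629 (2.32). Chd9, a chromatin remodeller, had 1697, 1916 and 7615 (1.99), and Sipa1, which inactivates the small GTPase Rap1, had 1260, 1314 and 4089 (1.64). In these genes the control and the library labelled shRNA 1 were close. Cp, the copper-carrying ferroxidase ceruloplasmin, had 1399, 2823 and 6395 (1.18), with each library apart from the others. Lhfpl2 had 1345, 737 and 1911 (1.37) and Tmem176b, a membrane protein of myeloid cells, had 1764, 1213 and 3028 (1.32).

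The largest negative difference was that of Tnfsf15 (chromosome 4, 63727084 to 63745113, minus strand), which encodes the TNF-family cytokine TL1A. It had 173, 2083 and 185 normalized counts, a difference of -3.49, with the library labelled shRNA 1 alone high. Rgs8, a regulator of G-protein signalling, had 30.5, 150 and 15.3 (-3.21). Tnfsf8, which encodes the CD30 ligand, had 383, 725 and 138 (-2.39), with the control between the others. Areg, which encodes the EGF-receptor ligand amphiregulin, had 114, 310 and 68.0 (-2.17).

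At a mean of at least 1000 the lower genes fell into more than one pattern. Aacs, an enzyme that activates ketone bodies for lipid synthesis, had 543, 3332 and 790 (-2.07), and Phf3, a nuclear protein, had 1827, 6393 and 2298 (-1.48). In both the library labelled shRNA 1 stood above the other libraries. Gsn, the actin-severing protein gelsolin, had 4838, 4454 and 1127 (-1.98), and Vps39, a subunit of the HOPS tethering complex, had 3107, 3549 and 920 (-1.95). In these the library labelled shRNA 2 stood below the other libraries. Pkd1, which encodes polycystin, had 229, 2750 and 951 (-1.53), with the control lowest.

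The place of the control beside these genes was counted. The control is not part of the difference, but it enters the filter, which asks for a mean of at least 50 over the 3 libraries. Genes of low level can pass through the library where they are high, so this place is not an independent readout. Among the 155 higher genes it lay between the shRNA libraries in 95, below both in 43 and above both in 17. Among the 132 lower genes it lay between them in 86, below both in 29 and above both in 17. Over all genes it lay between them in 29.5%, but a wide gap leaves more room for another value, so a higher share is built into the choice of these genes. The control was nearer to the library labelled shRNA 1 in 99 of the higher genes (63.9%), against 49.5% of all genes. It was nearer to that labelled shRNA 2 in 78 of the lower genes (59.1%), against 50.5% of all genes.

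**Figure D2:**
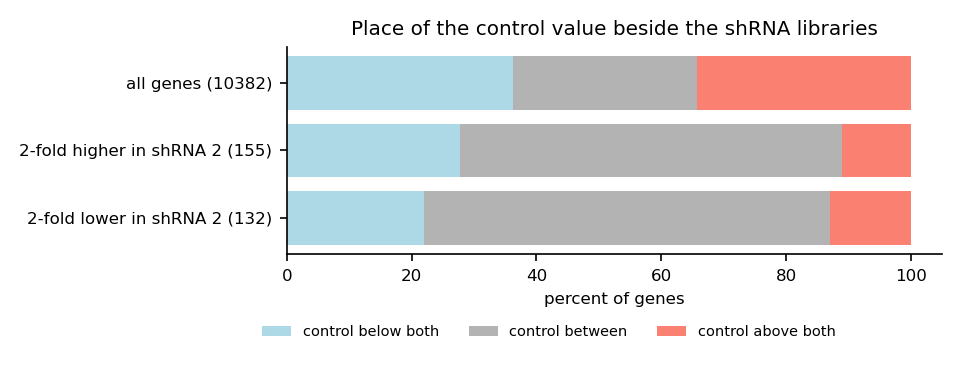
Bars give the percent of genes (x) in which the control value lay below both, between or above both shRNA libraries, for all 10382 genes, the 155 genes 2-fold higher and the 132 genes 2-fold lower in the library labelled shRNA 2. The control lay between in 29.5% of all genes, 61.3% of the higher and 65.2% of the lower genes.

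Genes of cell division were higher in the library labelled shRNA 2 nearly throughout. Of 71 genes of mitosis and G2/M, 68 were higher and 3 lower, 16 were at least 1.5-fold higher and none at least 1.5-fold lower. The median difference was 0.46, against -0.01 over all genes, and it stayed between 0.44 and 0.53 under the alternatives. Cenpf (chromosome 1, 189640606 to 189688086, minus strand), a kinetochore protein, had 1212, 1346 and 4754 (1.82). Espl1, which encodes separase, the protease that parts sister chromatids, had 753, 999 and 2284 (1.19). In both genes the library labelled shRNA 2 was the only high one. Prc1, a bundler of spindle microtubules, had 3370, 1811 and 3964 (1.13), and Birc5, which encodes survivin, had 1821, 1202 and 2165 (0.85), and in these the library labelled shRNA 1 was the low one.

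Each shRNA library was also set beside the control, which both comparisons share. The median mitotic gene was at -0.20 in the library labelled shRNA 1 and at 0.23 in that labelled shRNA 2, and the control lay between them in 45 of 71 genes. Widely used proliferation genes, chosen after their values were seen, differed less than Cenpf: Mki67 had 7573, 7548 and 10703 (0.50), Cdk1, the mitotic kinase, had 5363, 4561 and 6272 (0.46), and Top2a had 13113, 11746 and 15738 (0.42). The 3 lower genes were Mad2l1, Cdc25b and Pttg1. Mad2l1, of the spindle checkpoint, had 972, 3044 and 2349 (-0.37), with the control lowest.

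Genes of DNA replication and G1/S followed with smaller differences. Of 56 genes, 48 were higher and 8 lower, with a median of 0.27, and 4 were at least 2-fold higher. Besides Orc1 these were Chaf1b, a histone chaperone subunit, with 263, 244 and 562 (1.20), E2f8, a repressor of E2F targets, with 364, 320 and 713 (1.15), and Exo1, a DNA exonuclease, with 425, 301 and 660 (1.13). All 4 were highest in the library labelled shRNA 2. Among inhibitors and regulators of the cycle the directions were mixed, with 9 of 27 higher and 18 lower. Cyclin D2, Ccnd2, had 329, 2864 and 1214 (-1.24), and the stress gene Gadd45a had 171, 317 and 127 (-1.31). Rb1, the retinoblastoma gene, had 306, 416 and 848 (1.03).

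Interferon-response genes were lower in the library labelled shRNA 2, by small amounts and almost without exception. Of 60 genes, 56 were lower and 4 higher, 3 were at least 1.5-fold lower and none reached 2-fold. The median was -0.28 and stayed between -0.28 and -0.17 under the alternatives. These genes are abundant, and the fifth of all genes with the highest means had a median of -0.07. Ifi27l2a had 7051, 6864 and 4022 (-0.77), Ifit1bl1 had 6138, 5739 and 3545 (-0.69), and Gm4951 had 759, 888 and 574 (-0.63). In each the library labelled shRNA 2 was the lowest, and the other libraries lay nearer to each other. Ifit1bl1 and Gm4951 share 19.2% and 13.7% of their sequence with other genes and are uncertain. Isg15, a ubiquitin-like modifier chosen after its values were seen, had 37285, 36637 and 29958 (-0.29).

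Against the shared control the median gene was at -0.09 in the library labelled shRNA 1 and at -0.36 in that labelled shRNA 2. Some genes of the response differed by less. The gene of interferon beta itself, Ifnb1, had 620, 1338 and 1385 (0.05), and the chemokine gene Cxcl10 had 113956, 87117 and 82837 (-0.07). Both were nearly equal in the shRNA libraries and apart from the control. Ifi27 was the member with the largest positive difference, with 2190, 2374 and 3126 (0.40).

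The interferon-induced GTPases, which attack the vacuoles of intracellular microbes, were lower in all 16 of 16 genes, with a median of -0.39. Gbp9 had 5929, 7365 and 4170 (-0.82), Gbp4 had 798, 999.7 and 571 (-0.81), and Igtp had 21451, 18862 and 14186 (-0.41). Of the sequence in Gbp9 18.8% and of that in Gbp4 22.6% is shared with other genes, so both values are uncertain. Tgtp1 and Tgtp2 are close copies of each other, so their values, 1022, 1046 and 653 and 9782, 8078 and 5554, depend on how reads were shared between them. The MHC class I pathway, which presents peptides to CD8 T cells, was lower in 23 of 24 genes, with a median of -0.28. H2-Q6 had 9458, 7954 and 5439 (-0.55), H2-D1 had 90580, 76800 and 59703 (-0.36), and B2m, the common light chain, had 76682, 83487 and 65478 (-0.35). For H2-D1 and B2m the library labelled shRNA 2 was again lowest, but the library labelled shRNA 1 lay below the control in the former and above it in the latter. Several of these class I genes share sequence with one another.

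The interferon and mitotic groups each had a shared letter pattern in front of many of their genes. It is shown here for examples that have a match within 120 bases of the start, which are not a full ranking by difference. Cenpf, Espl1 and Prc1 share 1.08%, 0% and 2.10% of their sequence with other genes. For Ifit3, Ifih1, Igtp, Gbp7 and Aspm this share was not measured. In the interferon genes the capitals mark the core of the interferon-stimulated response element, GAAANNGAA on either strand, and in the mitotic genes the CCAAT box on either strand. The sequences are the 120 bases before the gene start, 5′ to 3′ on the strand of the gene, from RefSeq on GRCm38.p6.
Ifit3, chr19:34583409-34583528, plus strand: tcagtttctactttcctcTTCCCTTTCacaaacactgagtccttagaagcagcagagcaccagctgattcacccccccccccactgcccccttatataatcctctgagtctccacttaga
Ifih1, chr2:62646256-62646375, minus strand: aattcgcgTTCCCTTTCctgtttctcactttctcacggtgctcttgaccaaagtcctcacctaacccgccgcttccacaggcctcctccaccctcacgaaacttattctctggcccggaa
Igtp, chr11:58199436-58199555, plus strand: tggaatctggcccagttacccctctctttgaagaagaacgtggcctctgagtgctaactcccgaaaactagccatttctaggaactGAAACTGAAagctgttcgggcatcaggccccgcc
Gbp7, chr3:142530216-142530335, plus strand: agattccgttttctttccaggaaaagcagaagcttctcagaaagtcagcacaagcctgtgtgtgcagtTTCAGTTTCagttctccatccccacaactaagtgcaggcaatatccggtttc
Cenpf, chr1:189688087-189688206, minus strand: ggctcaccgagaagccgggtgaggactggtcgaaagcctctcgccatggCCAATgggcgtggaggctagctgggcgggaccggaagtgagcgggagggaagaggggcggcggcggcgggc
Espl1, chr15:102296173-102296292, plus strand: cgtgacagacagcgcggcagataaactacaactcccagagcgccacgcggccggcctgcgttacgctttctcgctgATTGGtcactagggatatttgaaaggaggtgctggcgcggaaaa
Prc1, chr7:80294331-80294450, plus strand: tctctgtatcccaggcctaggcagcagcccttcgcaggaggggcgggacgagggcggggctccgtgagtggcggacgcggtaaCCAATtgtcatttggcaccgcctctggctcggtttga
Aspm, chr1:139454653-139454772, plus strand: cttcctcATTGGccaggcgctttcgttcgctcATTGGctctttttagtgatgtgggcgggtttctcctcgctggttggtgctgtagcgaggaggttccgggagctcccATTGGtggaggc

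Promoters from 250 bases before to 50 after the start were found for 8317 of the 10382 genes. The response-element core lay in 25 of 45 promoters of the interferon list (55.6%) and in 10 of 11 of the GTPases, against 7.66% of all promoters. The CCAAT box lay in 40 of 57 mitotic promoters (70.2%), against 39.6% of all. The cell cycle homology region, searched as TTTGAA, lay in 39 of 57 mitotic promoters (68.4%), against 12.4% of all. A site of E2F, searched as TTNGCGC, lay in 16 of 44 promoters of DNA replication genes (36.4%), against 12.0%. These lists hold genes known for such control, and the match is a description of letters only. Both strands were searched, and matches of different motifs may overlap.

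The 2-fold genes, which were not chosen by function, were closer to all promoters in most motifs. The response-element core lay in 8.33% of the promoters of higher genes and 7.37% of those of lower genes. TTTGAA lay in 21.7% and 7.37%. The NF-kB pattern GGNNNTTCC lay in 26.7% and 13.7%, against 22.8% of all promoters, and CCAAT in 48.3% and 27.4%. The promoters found numbered 120 for the higher and 95 for the lower genes.

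**Figure D3:**
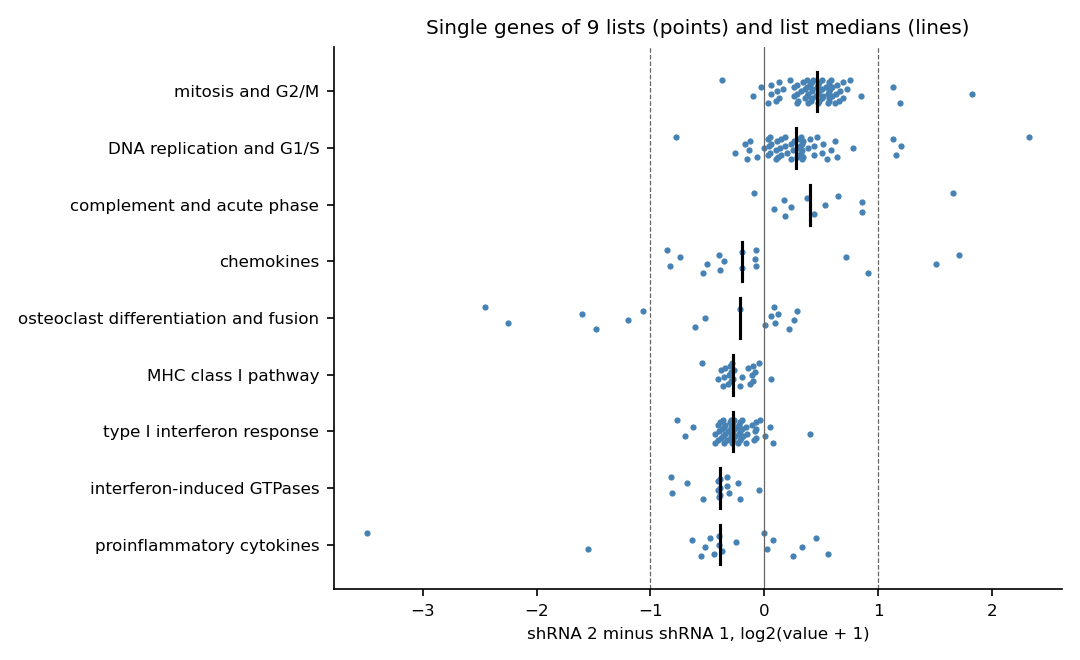
Each point is 1 gene of the list named on the y axis; x is shRNA 2 minus shRNA 1 on the log2(value + 1) scale, black lines are list medians and dashed lines mark 2-fold. Mitotic genes centre on 0.46 and the GTPases on -0.39, while the osteoclast and chemokine lists split into separate parts.

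Inflammatory cytokines did not move as 1 group. Of 18 genes, 12 were lower and 6 higher in the library labelled shRNA 2, with a median of -0.39. Besides Tnfsf15, Lif was more than 2-fold lower: this IL-6-family cytokine had 3760, 13544 and 4637 (-1.55), high in the library labelled shRNA 1 alone. The interleukin-1 genes were ordered in the same way, with 10212, 27315 and 17606 for Il1a (-0.63) and 31161, 75964 and 52880 for Il1b (-0.52), so that the library labelled shRNA 2 lay between the others. Tnf had 35124, 41171 and 41924 (0.03). Il6, the cytokine of the acute phase, had 1957, 6114 and 8985 (0.56), and Csf2, which encodes GM-CSF, had 166, 714 and 899 (0.33). Both of the last were highest in the library labelled shRNA 2.

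Chemokines differed in both directions. Of 17 genes, 13 were lower and 4 higher, with a median of -0.20. Ligands of CCR2, which recruit monocytes, were among the higher ones: Ccl12 had 574, 306 and 1004 (1.71), Ccl7 had 813, 595 and 1693 (1.51), and Ccl2 had 14102, 10997 and 20716 (0.91). In all of these the library labelled shRNA 1 was lowest and that labelled shRNA 2 highest, with the control between. The fourth higher gene was Cxcl9, with 176, 131 and 217 (0.72). Ccl22, a ligand of CCR4, had 9279, 26578 and 14730 (-0.85), Cx3cl1 had 34.3, 196 and 110 (-0.83), and Ccl5 had 26491, 44089 and 26448 (-0.74). These were all highest in the library labelled shRNA 1. The grouping of Ccl2, Ccl7 and Ccl12 by receptor was noted after their values were seen.

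**Figure D4:**
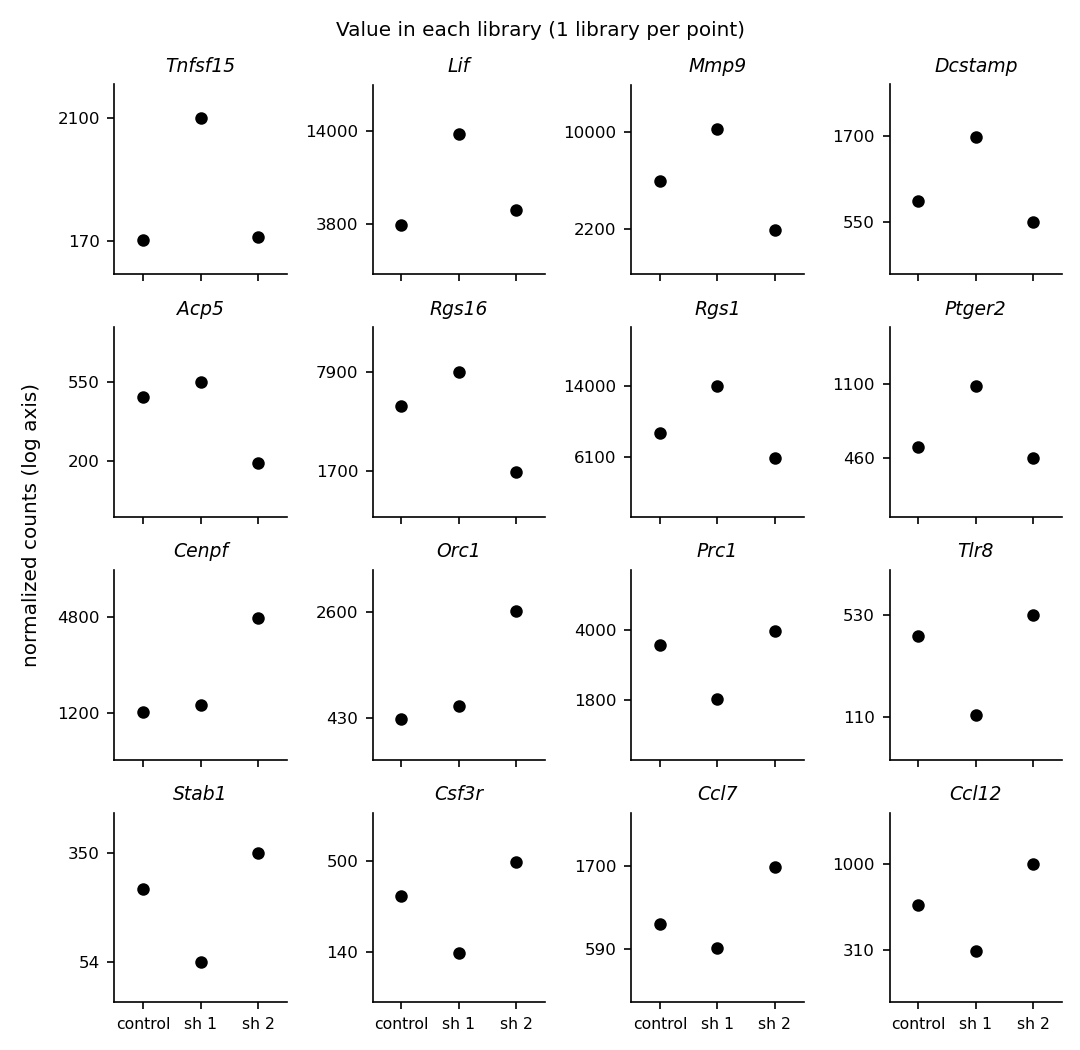
Normalized counts (y, log axis, own scale in each panel) of 16 genes in the control, the library labelled shRNA 1 (sh 1) and that labelled shRNA 2 (sh 2), 1 point per library. In Tnfsf15 and Lif the library labelled shRNA 1 stands alone high, in Cenpf and Orc1 that labelled shRNA 2 does, and in Tlr8 and Prc1 that labelled shRNA 1 is low.

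The receptors and signalling proteins of the LPS response were balanced in direction, with 18 of 36 genes higher and 18 lower and a median of 0.00. At least 1.5-fold, 4 of the 36 were higher and none lower, against 4.79% and 3.78% of all genes. Tlr4 had 2440, 2023 and 2412 (0.25), Cd14 had 119577, 122965 and 112411 (-0.13), and the adaptor Myd88 had 13555, 12978 and 12128 (-0.10). The only gene past 2-fold was Tlr8, an endosomal receptor of RNA, which had 384, 114 and 529 (2.21) and was low in the library labelled shRNA 1. Tlr13 had 840, 460 and 728 (0.66). Ticam2, which shares 19.5% of its sequence with other genes and is uncertain, had 318, 303 and 483 (0.67). Irak3, an inhibitor of the pathway, had 764, 520 and 943 (0.86). NF-kB subunits and inhibitors were lower in 18 of 23 genes, with a median of -0.12, and none reached 2-fold.

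Immediate-early factors were lower in 21 of 29 genes, with a median of -0.14. Egr2 had 77.8, 156 and 59.1 (-1.39), Ier3 had 8483, 18527 and 9714 (-0.93), and Btg1, an inhibitor of proliferation, had 12116, 18744 and 10864 (-0.79). In these the library labelled shRNA 1 was the high one. Nr4a2, an orphan nuclear receptor, had 283, 169 and 94.0 (-0.84), with the control highest. Dusp5, which inactivates ERK, had 6707, 9218 and 4416 (-1.06). Among feedback inhibitors of cytokine signalling Socs3 had 44836, 49717 and 29363 (-0.76), and 13 of 19 genes of that list were lower.

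Within the list of GIV, its paralogs and heterotrimeric G proteins, 14 of 30 genes were higher and 16 lower, with a median of -0.01. The 3 genes of this list past 2-fold were all regulators of G-protein signalling (RGS), which speed the return of G alpha subunits to the inactive state. Rgs16 (chromosome 1, 153740349 to 153745468) had 4675, 7885 and 1671 (-2.24), Rgs2 had 5839, 7012 and 2541 (-1.46), and Rgs1 had 8141, 13974 and 6065 (-1.20). In each the library labelled shRNA 1 was highest and that labelled shRNA 2 lowest. The other RGS genes on the list did not share this order, with 1054, 895 and 1065 for Rgs14 (0.25) and 3305, 3206 and 3464 for Rgs19 (0.11). Off the list, Rgs8 had the order of Rgs16, Rgs2 and Rgs1, with 30.5, 150 and 15.3 (-3.21). Rgs18, also off the list and chosen after its values were seen, went the other way past 2-fold, with 0.933, 57.8 and 119 (1.02). Rgs8 and Rgs18 were of low level and passed the filter only through libraries where they were high. Of the receptors that signal through these proteins, Ptger2, for prostaglandin E2, had 520, 1078 and 456 (-1.24). Ptgs2, which encodes the enzyme COX-2 that makes its ligand, had 164117, 286878 and 175757 (-0.71). Pik3r2, a regulatory subunit of PI 3-kinase, had 497, 1145 and 422 (-1.44).

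Genes of osteoclast formation, a fate that RAW 264.7 cells can take, held the largest share of 2-fold lower genes among the groups named here, 6 of 17. Atp6v0d2, a proton pump subunit needed for cell fusion, had 87.0, 183 and 32.7 (-2.45). Mmp9 (chromosome 2, 164940780 to 164955850), a gelatinase, had 4632, 10440 and 2188 (-2.25), and Dcstamp, a fusion protein, had 718, 1672 and 550 (-1.60). In all 3 the library labelled shRNA 1 was above the control and that labelled shRNA 2 below it. The others were Acp5, which encodes tartrate-resistant acid phosphatase, with 450, 549 and 197 (-1.48), the kinase Src with 2487, 3211 and 1402 (-1.20), and carbonic anhydrase Car2 with 14918, 28099 and 13456 (-1.06). Nfatc1, the master factor of this fate, had 2302, 2501 and 1741 (-0.52). Jdp2, an AP-1 factor, had 4120, 5018 and 3291 (-0.61). The remaining 9 genes lay between -0.21 and 0.29, with 240, 159 and 191 for the cathepsin Ctsk (0.26) and 2031, 1546 and 1890 for the receptor Tnfrsf11a (0.29). The list median was -0.21, with 8 genes higher and 9 lower.

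Scavenger and phagocytic receptors gave the opposite picture at the extremes. Of 23 genes, 4 were at least 2-fold higher and none 2-fold lower, with a median of 0.10. Stab1, a scavenger of modified lipoprotein and dying cells, had 189, 53.6 and 355 (2.70), Trem3 had 65.5, 41.2 and 150 (1.84), and Olr1, a receptor of oxidised lipoprotein, had 165, 113 and 333 (1.55). The integrin subunit Itgb5 had 632, 404 and 826 (1.03). In all of these the library labelled shRNA 1 was lowest and that labelled shRNA 2 highest. The lower genes included Clec5a, with 6896, 8254 and 5285 (-0.64), and the mannose receptor Mrc1, with 134, 122 and 84.6 (-0.53).

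Complement and acute-phase genes were higher in 11 of 12, with a median of 0.40. F10, which encodes coagulation factor X, had 171, 50.2 and 160 (1.65), and Saa3, an acute-phase apolipoprotein, had 21473, 11319 and 20517 (0.86). Both were low in the library labelled shRNA 1 and near the control in the other. C3, the central complement component, had 2288, 2795 and 5052 (0.85), with the library labelled shRNA 2 alone high. Receptors of colony-stimulating factors went both ways. Csf3r had 309, 139 and 497 (1.83), Csf2rb had 2208, 1371 and 2711 (0.98), and Csf1r, the receptor of M-CSF, had 18776, 9476 and 15612 (0.72), all lowest in the library labelled shRNA 1. Csf2ra, with 6887, 4564 and 3603 (-0.34), and Csf2rb2, with 502, 503 and 369 (-0.45), were lowest in that labelled shRNA 2. Of the 31 cytokine and chemokine receptors as a whole, 15 were higher and 16 lower. Of the sequence in Csf3r 24.4% is shared with other genes, and of that in Csf2rb, a close copy of Csf2rb2, 29.3%, so their reads could have been divided and the opposite signs of Csf2rb and Csf2rb2 are uncertain.

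In housekeeping and stress groups, ribosome biogenesis genes were higher in 34 of 42 (median 0.12) and glycolysis and hypoxia genes in 25 of 34 (0.13). Cytosolic ribosomal proteins were lower in 42 of 54 (-0.07), an amount as small as the 0.07 by which scaling to equal totals moves all genes, and under the alternatives this median ranged from -0.07 to 0.05. Genes of the unfolded protein response were lower in 18 of 21 (-0.10), and heat shock and folding genes in 18 of 21 (-0.17). Under the alternatives the former median ranged from -0.11 to -0.03 and the latter from -0.19 to -0.02. The integrated stress response had a median of -0.23. The mitochondrially encoded genes were higher in 9 of 13, with a median of 0.22, and the library labelled shRNA 1 had the smallest mitochondrial share. Their part in the other results was not tested.

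**Figure D5:**
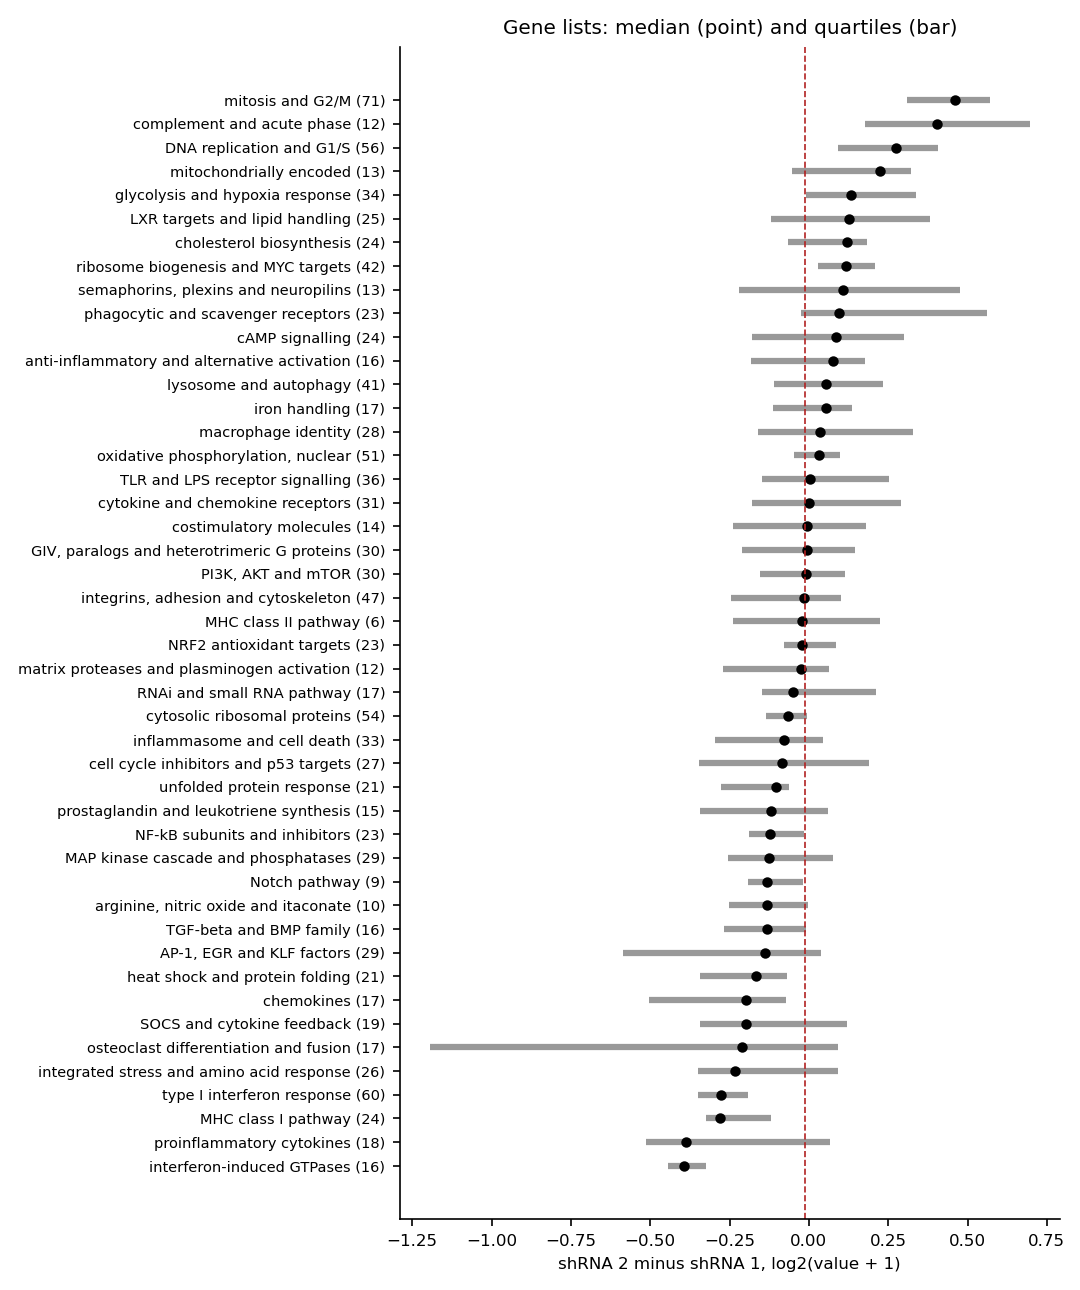
Points are the median shRNA 2 minus shRNA 1 difference (x, log2(value + 1) scale) of 46 gene lists (y, number of genes in parentheses) and bars span their quartiles; the dashed line is the median of all genes, -0.01. Mitosis, at 0.46, and the interferon-induced GTPases, at -0.39, are at the ends.

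Of the 287 genes past 2-fold, 31 shared at least 10% of their 31-base words with other genes, 20 of them higher and 11 lower, so that their reads could have been divided differently between copies. They included Zfp968, with 73.1, 4.24 and 97.6, Tymp, with 123, 144 and 21.2, Cntf, with 103, 96.8 and 15.4, Fam177a, with 1411, 1449 and 293, Hspa1b, with 4249, 4590 and 1657, and Rps2, with 8032, 6240 and 14091. These are reported as uncertain. Across genes, which are not replicates, the difference had a Spearman rho of -0.17 with mean level, -0.02 with transcript length and 0.09 with GC content.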

How the data were processed

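Stranded mRNA sequencing was done on 3 libraries of LPS-treated RAW 264.7 cells. The deposited table holds the authors' normalized counts, treated as signal. The submitters' processing notes name Salmon, DESeq, DESeq2 and GRCm38; versions, roles and the annotation are not given in the sources used here. Low values were whole multiples of 1 step, within a tolerance of 0.1, in 82.3% to 83.9% of cases, too few to recover reads, so no count model was used. Groups and shRNA numbers came from the sample titles.

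Identifiers were matched to GENCODE M21 on GRCm38, with a symbol for 54097 and none for 234. Genes were kept at a mean of at least 50, and a pseudocount of 1 was added. With 1 library per shRNA, genes were counted by size (2-fold, and 1.5-fold) and no test was made. The size rule was also tried on simulated data with known differences and counting error only, so differences between cultures were not covered. Of 1428 genes on 54 lists, 1173 passed the filter, and a gene listed only under the filter enters no count. The members and lists were chosen with earlier results of these data known.

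The genes named were drawn from those picked by a rule, and not all of the picked genes are given. The rule took Ccdc88a and its paralogs, and the 15 largest differences in each direction. It also took the 10 largest in each direction at a mean of at least 1000. Further genes were up to 4 of each list with the largest difference, and a set of macrophage and LPS-response genes. Genes named outside this rule, including examples of a list beyond its 4 leading genes, were chosen after their values were seen. Sequence sharing was the percent of a gene's 31-base words found in other annotated genes. It was measured only for genes past 2-fold and genes picked by the rule. Promoters came from RefSeq (GRCm38.p6). Alternatives covered the pseudocount, filters, scalings, a length and GC trend, the fold rule and, chosen after seeing the data, leaving out genes with shared sequence. Python 3.11.15, pandas 2.3.3, numpy 2.4.6, scipy 1.17.1 and matplotlib 3.10.9 were used.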

Additional observations from a re-analysis of the deposited data

How the results depend on the processing

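The counts of 155 higher and 132 lower genes moved most with the filter and the fold rule. At a mean of at least 10 they were 310 and 240, and at a mean of at least 200 they were 83 and 71. At 1.5-fold they were 497 and 392, and at 3-fold 43 and 39. Scaling to equal totals gave 191 and 109, with 63.7% of the 2-fold genes higher against 54.0%, and quantile normalization gave 144 and 149. The other alternatives kept both counts within 1.5 times. Of the list medians, that of the dendritic cell markers turned round, from -0.22 to 0.21 with a mean of at least 10, where more of its genes entered. All other list medians of at least 0.1 in size kept their sign. With 1 library per shRNA no library could be left out and no spread between replicates is known, so differences between cultures of the same line cannot be told apart from differences between shRNAs. Depth limits genes near the filter, where 50 normalized counts stand for roughly 45.0 to 53.7 reads.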

Other observations

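Some further genes past 2-fold, chosen after their values were seen, were on none of the lists, and they stand for no group. Values are normalized counts in the order used above, and the log2 difference between the shRNA libraries follows in parentheses. Of secreted factors, Tslp had 68.2, 125 and 49.9 (-1.30), Hbegf had 44.8, 113 and 52.4 (-1.10), and Il7 had 110, 122 and 59.9 (-1.01), whereas Igf1 had 179, 161 and 426 (1.40) and Adm had 153, 102 and 246 (1.26). The inhibitory receptors Pdcd1, with 2382, 3781 and 1791 (-1.08), and Lag3, with 48.8, 148 and 43.3 (-1.75), were highest in the library labelled shRNA 1. Among the higher genes, the formyl peptide receptor Fpr1 had 253, 119 and 308 (1.37), Siglece, an inhibitory sialic acid receptor, had 596, 364 and 777 (1.09), and Gpr183, an oxysterol receptor, had 219, 294 and 634 (1.10). Of clock genes beside Cry1, the repressor Bhlhe41 was also past 2-fold higher (1.12) and Per1 had 1422, 1490 and 2116 (0.51), while the paralog Cry2 had 576, 693 and 536 (-0.37) and Arntl, which encodes BMAL1, had 1712, 2129 and 1423 (-0.58).

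Of 17 genes of the MHC class II pathway 6 passed the filter, with a median of -0.02. Under the filter, H2-Aa had 1.97, 16.5 and 75.5 and H2-Eb1 had 3.77, 9.01 and 27.4, whereas H2-DMb2 had 17.8, 16.7 and 15.4 and H2-DMb1 had 7.54, 0 and 1.55. Among the 8 protein-coding features with a sufficient mean and a 0 in a library, 1700047I17Rik2 had 0, 0 and 1053, and a second identifier of Nnt had 516, 405 and 0. A 0 can be a failed estimate, so no fold is given for them. The first identifier of Nnt was past 2-fold higher (1.15) and shares 96.4% of its sequence with other genes. Its reads could have been divided between identifiers, so its value is uncertain too.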
